A study of Mus musculus with 8 samples.

Results

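Decorin, lumican, biglycan, fibulin-1, fibulin-2, SPARC, periostin, TGF-beta-induced protein, fibronectin and thrombospondin-2 are secreted proteins of the connective tissue around a tumour. Their genes (Dcn, Lum, Bgn, Fbln1, Fbln2, Sparc, Postn, Tgfbi, Fn1 and Thbs2) were followed in mammary tumours of mice given the kinase inhibitor SKI-606 or vehicle. Members were all probes annotated to only 1 of these 10 symbols, which gave 24 of the 45037 probes tested and 10 of the 18193 genes that had such a probe. The rule goes by gene symbol, but the 10 symbols were chosen with earlier results of these data known, so counts over them are not independent evidence of a direction. All 8 samples carried the MMTV-PyMT genotype, and the labels give the strain name as FVB/N-Tg(MMTV-PyVT)634Mul/J. In this line the mouse mammary tumour virus promoter drives the polyoma middle T antigen in mammary epithelium. The tumours were in female mice, 4 of the samples came from vehicle-treated animals, and the other 4 came from animals that received SKI-606 by mouth at 100 mg/kg. SKI-606 is the code name of bosutinib, which blocks kinases of the Src and Abl families. The sources used here give no ages, no length of treatment and no list of animals. The p-values therefore reflect how far these samples differ among themselves, part of which may be technical.

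The members fall into 4 kinds. Decorin, lumican and biglycan are small leucine-rich proteoglycans, which bind collagen fibrils and, in the case of decorin and biglycan, growth factors such as TGF-beta. Fibulins bridge elastic fibres, basement membranes and fibronectin. SPARC, periostin, TGF-beta-induced protein and thrombospondin-2 are matricellular proteins, which tune the contact of cells with the matrix rather than carry load, and fibronectin is the adhesive glycoprotein on which much of the fibrillar matrix is assembled. In mammary tumours fibroblasts are the best known source of the proteoglycans, while fibronectin, SPARC and periostin can also be made by vessel wall and tumour cells.

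SKI-606 samples had higher signals than vehicle samples on average in 10 of 10 genes. The median log2 fold change was 0.91, with a range from 0.42 for Lum to 1.70 for Fbln1, against a median of -0.02 and 47.2% of genes above 0 over all 18193 genes. With limma across all probes and Benjamini-Hochberg adjustment, 0 members passed a threshold of 0.05, as did 0% of all probes. At an unadjusted p under 0.05 there were 8 members, all higher, where 6.07% of all genes were higher by that measure. In 4 members (Bgn, Fbln1, Sparc and Thbs2) the lowest of the 4 SKI-606 values exceeded the highest vehicle value, which was so in 2.39% of all genes. None of these differences can therefore be called for a single gene in this design.

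Much of the difference lay in SKI-606 samples 1 and 4. These were the highest pair in 7 of the 10 genes, and without both, together with vehicle sample 3, the median log2 fold change was 0.39 and 1 member, Fbln1, had an unadjusted p under 0.05. Over all probes SKI-606 samples 1 and 4 also stood apart, since they scored 81.2 and 72.4 on the leading principal component (34% of the variance), on which the other samples scored below 0, and vehicle sample 3 lay apart on the next, at -81.0. The markers of squamous epithelium had summed signals of 19110 and 21450 in SKI-606 samples 1 and 4 and of 13100 in vehicle sample 3, against at most 2020 in the others. The part of these samples' cell makeup in the results was not tested. In bulk tumour RNA, more stromal cells and more RNA of these genes per cell cannot be told apart.

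**Figure D1:**
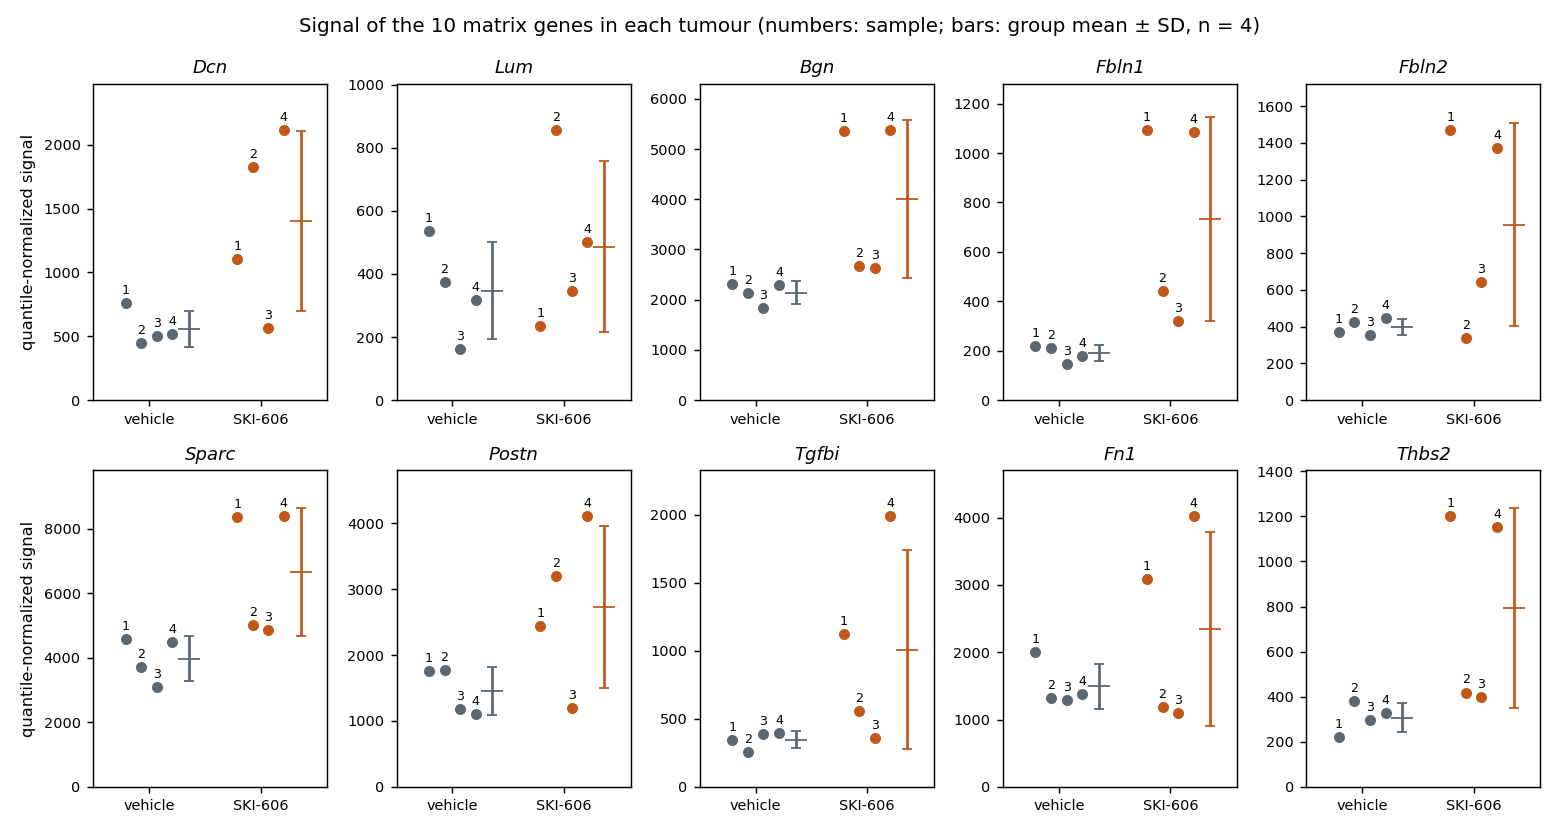
Quantile-normalized signal (linear axis from 0) of the brightest probe of each of the 10 genes in the 4 vehicle and 4 SKI-606 samples. Each point is labelled with its sample number, and bars give the group mean ± SD (n = 4). SKI-606 samples 1 and 4 are the 2 highest points in 7 panels, whereas in Dcn, Lum and Postn SKI-606 sample 2 is among the 2 highest.

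Signals below are quantile normalized between arrays and linear. Fold changes and their SE are on the scale of log2(signal + 16), SKI-606 minus vehicle, with n = 4 in each group, and the added 16 understates changes of dim probes. Each gene is given by its brightest probe, the one of highest mean over the 8 samples.

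Decorin coats collagen fibrils and limits their thickness. Its signal was, from sample 1 to sample 4 of each group, 763, 444, 498 and 515 under vehicle and 1103, 1827, 563 and 2118 under SKI-606. SKI-606 samples 1, 2 and 4 lay above every vehicle sample, and SKI-606 sample 3 lay within the vehicle range. The group means were 555 ± 142 and 1403 ± 704 (SD), and the log2 fold change was 1.18 ± 0.38 (SE) with an adjusted p of 0.558 in limma and an exact permutation p of 0.0571 (two-sided).

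Lumican, which shares its core structure with decorin, showed another picture. Its signal was 536, 375, 161 and 319 under vehicle and 236, 858, 347 and 503 under SKI-606, in the same order. Only SKI-606 sample 2 exceeded all vehicle samples, and SKI-606 sample 1, which was among the 2 highest samples for 7 members, lay below the vehicle median. The log2 fold change was 0.42 ± 0.42, with a 95% interval from -0.53 to 1.37 and an exact permutation p of 0.457, so that neither a decrease nor a doubling of lumican lies outside the interval. Leaving out SKI-606 sample 2 gave 0.11, as did leaving out vehicle sample 3, whereas leaving out sample 1 of either group gave 0.70 (SKI-606) or 0.66 (vehicle). The samples with the most lumican, SKI-606 sample 2 and vehicle sample 1, also had the highest summed signals of 10 skeletal muscle markers. These sums were 15570 and 21650, against 133 to 6818 in the others. Among the others the sums did not follow lumican. SKI-606 sample 4, with a lumican signal of 503, had the lowest sum, 133, and SKI-606 sample 1, with 236, had 6818. SKI-606 sample 2 had the highest sum of 7 measured adipocyte markers as well, 6104 against at most 2267 elsewhere, and the part of this tissue in the lumican signal was not tested.

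Biglycan, the third proteoglycan, separated the groups. Its signal was 2313, 2130, 1829 and 2299 in the vehicle samples and 5364, 2664, 2632 and 5387 in the SKI-606 samples, in order. Every SKI-606 sample lay above every vehicle sample, with samples 1 and 4 far above samples 2 and 3. The means were 2143 ± 225 and 4012 ± 1575 (SD), the log2 fold change 0.82 ± 0.27, the adjusted p 0.558 in limma, and the exact permutation p 0.0286, the lowest value possible in a design of 4 against 4. The other 2 probes of Bgn stood at 1.11 ± 0.29 and 1.03 ± 0.32 and also separated the groups.

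Dcn and Lum are direct neighbours on mouse chromosome 10, followed by Kera and Epyc, which encode keratocan and epiphycan of the same family. Kera and Epyc had mean signals of 2.38 and 12.6 under vehicle and of 1.16 and 10.8 under SKI-606, near the bottom of the scale. The paired neighbours Dcn and Lum thus were measured in all samples and their other neighbours of the family were not clearly detected. Over the 8 samples Pearson's r between Dcn and Lum was 0.595, the highest of Lum with any member, just above 0.592 with Postn. Among the members Dcn had its highest r with Postn, 0.926, and its lowest with Fbln2, 0.476.

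Fibulin-1, an elastic fibre and basement membrane protein that binds fibronectin, had the widest difference of the 10 genes. Its signal was 219, 209, 148 and 180 in the vehicle samples and 1095, 441, 319 and 1084 in the SKI-606 samples. The lowest SKI-606 sample exceeded the highest vehicle sample, and the means differed 3.89-fold, at 189 ± 32.3 and 735 ± 413 (SD). Fbln1 had a log2 fold change of 1.70 ± 0.38, with an adjusted p of 0.519 in limma and an exact permutation p of 0.0286. A further probe gave 1.94 ± 0.44, with signals from 83.1 to 124 under vehicle and from 156 to 897 under SKI-606, and it too separated the groups. The third probe of Fbln1 was dim, with means of 18.1 and 18.3, and stood at 0.01 ± 0.13.

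Fibulin-2, which also binds fibronectin and elastic fibre components, did not follow fibulin-1 in every sample. Its signal was 371, 423, 353 and 448 in the vehicle samples and 1472, 339, 641 and 1370 in the SKI-606 samples. SKI-606 sample 2 had the lowest fibulin-2 signal of all 8 samples although its fibulin-1 signal was above all vehicle samples. Its log2 fold change was 1.01 ± 0.41, with an adjusted p of 0.575 in limma and an exact permutation p of 0.143. The second Fbln2 probe was at the floor, with means of 4.36 and 2.78.

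SPARC, a collagen-binding matricellular protein, had signals of 4592, 3711, 3100 and 4493 in the vehicle samples and of 8358, 5006, 4866 and 8389 in the SKI-606 samples. The groups did not overlap, but the gap between SKI-606 sample 3 and vehicle sample 1 was small beside the spread of either group. The means were 3974 ± 703 and 6654 ± 1986 (SD), a log2 fold change of 0.71 ± 0.23 with an adjusted p of 0.558 in limma and an exact permutation p of 0.0286. A second bright Sparc probe stood at 1.03 ± 0.33 with the groups apart, and the third was dim, at -0.02 ± 0.28.

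Periostin, which links collagen and fibronectin and binds integrins, resembled decorin. Its signal was 1756, 1773, 1184 and 1110 in the vehicle samples and 2435, 3199, 1199 and 4105 in the SKI-606 samples. SKI-606 samples 1, 2 and 4 lay above all vehicle samples, and SKI-606 sample 3 lay among the lower vehicle values. Postn had a log2 fold change of 0.80 ± 0.35, with an adjusted p of 0.593 in limma and an exact permutation p of 0.114.

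TGF-beta-induced protein is built from the same kind of fasciclin domains as periostin. Its signal was 346, 256, 390 and 398 in the vehicle samples and 1126, 555, 359 and 1989 in the SKI-606 samples. SKI-606 sample 4 was highest and SKI-606 sample 3 lay within the vehicle range. The means were 347 ± 65.3 and 1007 ± 731 (SD), and the log2 fold change was 1.22 ± 0.45 with an adjusted p of 0.565 in limma. Without SKI-606 sample 4 it was 0.80. Its 4 probes ranged from 0.94 to 1.49, of which 2 had an unadjusted p under 0.05, and 1 separated the groups.

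Thrombospondin-2, a matricellular protein known to restrain angiogenesis and to affect collagen fibril assembly, had signals of 223, 380, 299 and 327 in the vehicle samples and of 1200, 419, 398 and 1154 in the SKI-606 samples. The groups did not overlap, although SKI-606 samples 2 and 3 lay just above vehicle sample 2. The means were 307 ± 65.3 and 793 ± 445 (SD), the log2 fold change 1.16 ± 0.38, the adjusted p 0.558 in limma and the exact permutation p 0.0286. On the other 2 Thbs2 probes, at 0.96 ± 0.41 and 0.97 ± 0.29, the groups overlapped, so that the separation holds for 1 of 3 probes.

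Fibronectin had signals of 1997, 1318, 1284 and 1384 in the vehicle samples and of 3085, 1187, 1101 and 4019 in the SKI-606 samples. SKI-606 samples 1 and 4 exceeded all vehicle samples, whereas SKI-606 samples 2 and 3 had the lowest fibronectin signals of the 8. The log2 fold change was 0.45 ± 0.41, with a 95% interval from -0.47 to 1.36 and an adjusted p of 0.795 in limma. It was 0.11 without SKI-606 sample 4, 0.24 without SKI-606 sample 1, and 0.70 and 0.73 without SKI-606 samples 2 and 3 in turn. Fibronectin was the only member whose difference turned, to -0.42, without SKI-606 samples 1 and 4 and vehicle sample 3. A second Fn1 probe was at the floor, with means of 1.66 and 6.25.

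**Figure D2:**
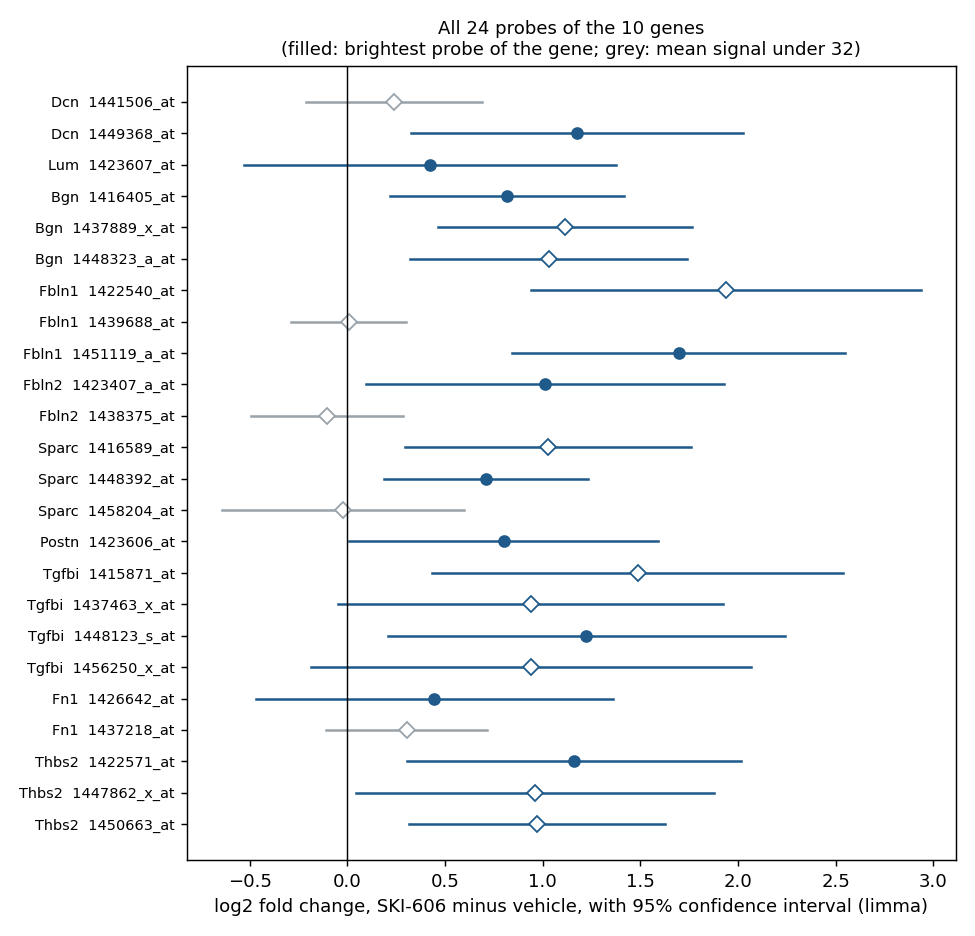
Log2 fold change (SKI-606 minus vehicle, limma) with its 95% confidence interval for all 24 probes, named by gene and probe; filled circles are the brightest probe of a gene, open diamonds its other probes, and grey marks the 5 probes with a mean signal under 32. All 19 brighter probes lie above 0, and the grey ones lie near 0.

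The probes of a gene gave like results once dim ones were set aside. All 19 probes with a mean signal of at least 32 lay above 0, and 15 of them had an unadjusted p under 0.05 in limma. By that measure 4.59% of all probes were higher. Of the 19, 9 separated the groups, where 1.83% of all probes had every SKI-606 value above every vehicle value. Both shares are over all 45037 probes, dim ones included, and are not matched to the 19 in brightness. Bright probes were called more often. With limma on the 14947 probes of mean signal of at least 50, 1693 had an unadjusted p under 0.05 in either direction, against 3771 of 45037. Probes of 1 gene measure the same RNA and are not independent. The smallest adjusted p of any member probe was 0.519. Some probes carry a suffix (x or s) that marks probe sets which may also bind related transcripts, among them 1 of Bgn, 1 of Thbs2 and 3 of Tgfbi, and the values of these are less certain.

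Across the samples the 10 genes formed no single pattern. SKI-606 sample 1 exceeded all vehicle samples in 9 genes, sample 4 in 9, sample 2 in 8 and sample 3 in 5. SKI-606 sample 3 had higher signals than all vehicle samples in the 4 genes whose groups were apart and in Fbln2. Vehicle sample 3 was the lowest of the 8 samples in 4 genes, Lum, Bgn, Fbln1 and Sparc. Bgn and Sparc were the most alike pair, with Pearson's r of 0.981 over the 8 samples, and Bgn and Fbln1 followed at 0.976. Lum was the member least like the others, with a median r of 0.117 to the other 9 and the lowest value, -0.158, to Fbln2. These are descriptions over 8 arrays among which SKI-606 samples 1 and 4 stand apart, and no p is given for them.

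**Figure D3:**
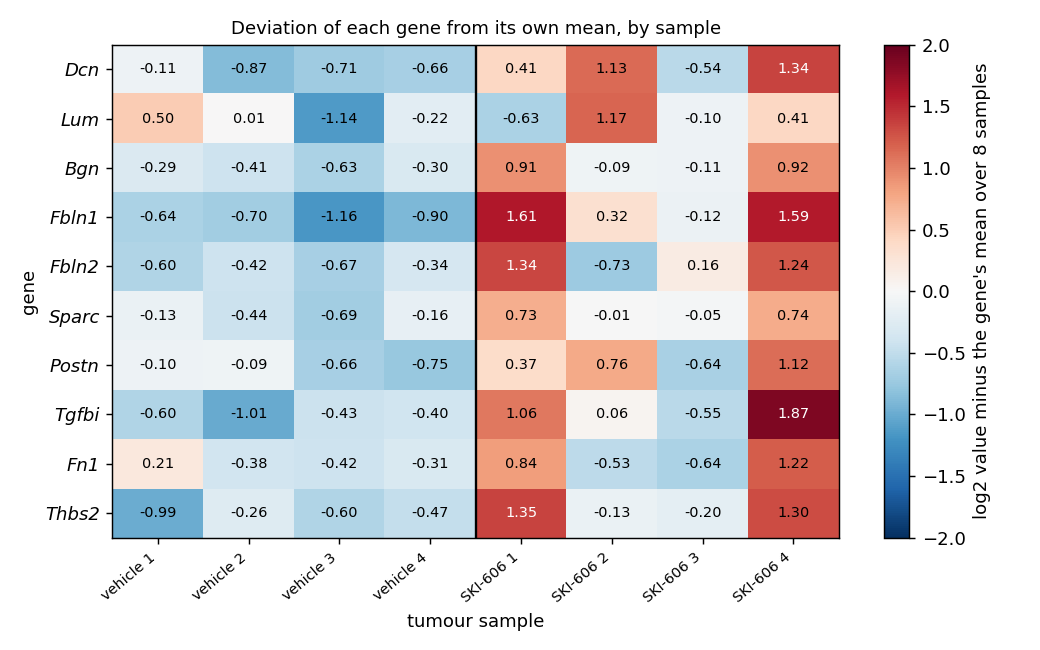
Deviation of each gene (rows) from its own mean over the 8 samples (columns), in log2 units, with the value printed in each cell; red is above and blue below the mean. SKI-606 samples 1 and 4 are red in nearly every row, the exception being Lum in SKI-606 sample 1 at -0.63. SKI-606 sample 2 is above the mean for Dcn, Lum, Postn, Fbln1 (0.32) and Tgfbi (0.06). It is below the mean for the other genes, furthest for Fbln2 at -0.73 and Fn1 at -0.53.

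Promoter sequences are shown for the 4 genes whose groups did not overlap, so that letters shared among them can be looked for. RefSeq promoters (GRCm38.p6) were matched for 7 of the 10 members, and each sequence is the 250 bases before the annotated start, on the strand of the gene. Of the 5 motifs searched on both strands, the TATA box has the letters TATAAA and the CCAAT box the letters CCAAT. The GC box has the letters GGGCGG, the AP-1 site the letters TGANTCA and the TEAD site the letters GGAATG. Matches are in capitals. Fbln1 has 2 annotated starts, of which the first is shown. The windows lie at chrX:73483351-73483600 (plus strand) for Bgn, chr15:85205699-85205948 (plus) for Fbln1, chr11:55420081-55420330 (minus) for Sparc and chr17:14694263-14694512 (minus) for Thbs2.
Bgn: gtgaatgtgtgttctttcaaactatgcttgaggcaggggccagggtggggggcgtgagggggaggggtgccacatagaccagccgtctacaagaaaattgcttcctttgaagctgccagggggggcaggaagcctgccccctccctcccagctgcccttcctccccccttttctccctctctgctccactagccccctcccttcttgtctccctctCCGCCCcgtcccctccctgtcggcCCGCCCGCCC
Fbln1: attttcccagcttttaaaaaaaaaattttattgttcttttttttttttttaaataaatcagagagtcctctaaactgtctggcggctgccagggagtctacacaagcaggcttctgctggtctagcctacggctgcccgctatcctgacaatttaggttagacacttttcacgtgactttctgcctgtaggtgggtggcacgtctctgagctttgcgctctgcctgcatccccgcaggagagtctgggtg
Sparc: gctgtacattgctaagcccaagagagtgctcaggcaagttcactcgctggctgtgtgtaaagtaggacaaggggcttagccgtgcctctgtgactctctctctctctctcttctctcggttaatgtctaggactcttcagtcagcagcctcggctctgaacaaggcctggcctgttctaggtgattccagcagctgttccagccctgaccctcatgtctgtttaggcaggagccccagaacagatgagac
Thbs2: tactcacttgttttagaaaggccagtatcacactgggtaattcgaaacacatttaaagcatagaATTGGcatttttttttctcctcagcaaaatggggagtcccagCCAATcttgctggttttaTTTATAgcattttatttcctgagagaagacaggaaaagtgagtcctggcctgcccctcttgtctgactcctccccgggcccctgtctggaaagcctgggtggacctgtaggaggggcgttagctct
The 4 sequences had no motif in common. Bgn held 3 GC box matches, the last 2 of which overlap and end at the start site, Thbs2 held 2 CCAAT box matches and 1 TATA box match on the reverse strand, 126 to 121 bases before the start, and the windows shown for Fbln1 and Sparc held none of the 5 motifs. The second annotated start of Fbln1 had a GC box match 11 to 6 bases upstream. Over the 7 members matched, taking the first start of each, the GC box was present in 3, the CCAAT box and the TATA box in 1 each, and the AP-1 and TEAD sites in 0, where 32.7%, 33.9%, 12.4%, 6.75% and 12.6% of all 32851 promoter windows held them. Of Postn, the second annotated start had a TATA box 26 to 21 bases upstream. A match is a description of letters, and a missing one says only that they are not in the window.

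The members were next set against 15 fibroblast markers, none of them a member, among them the collagen genes Col1a1, Col1a2 and Col3a1 and the receptor genes Pdgfra and Pdgfrb. The lists used here and below were also chosen with earlier results of these data known. Counts over them are not independent evidence of a direction. In the SKI-606 group 15 of 15 lay above 0, with a median log2 fold change of 0.85, where 47.2% of all genes lay above 0. At an unadjusted p under 0.05 in limma there were 11, all higher (0 by adjusted p). By that unadjusted measure 6.07% of all genes were higher. The summed signal of these markers lay between 16630 and 21980 under vehicle and between 23720 and 42880 under SKI-606, without overlap, and 0 of the 15 were at a signal of 0 in any array. The mean log2 value of the markers was 0.83 higher in the SKI-606 group.

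Relative to this fibroblast score of the same sample, fibulin-1 lay above its vehicle values in all 4 SKI-606 samples, which no other member did. The relative log2 value of Fbln1 lay from -0.27 to 0.27 around the vehicle mean in vehicle samples and was 1.36, 0.52, 0.47 and 1.13 in SKI-606 samples 1 to 4, a mean difference of 0.87. Sparc and Bgn had mean differences of -0.12 and -0.01. The relative values of Sparc spread by 0.04 (SD) under vehicle and 0.17 under SKI-606, with SKI-606 samples 2 and 4 at -0.31 and -0.22, below every vehicle sample. Those of Bgn spread by 0.11 and 0.24, with SKI-606 sample 2 at -0.34. Dcn, Tgfbi and Thbs2 were at 0.35, 0.39 and 0.33, with 2 of 4 SKI-606 samples above all vehicle samples in each, and Fbln2 was at 0.18 with 3 of 4. Lum and Fn1 were at -0.41 and -0.38, and Postn at -0.03. These differences are a description and were not tested.

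**Figure D4:**
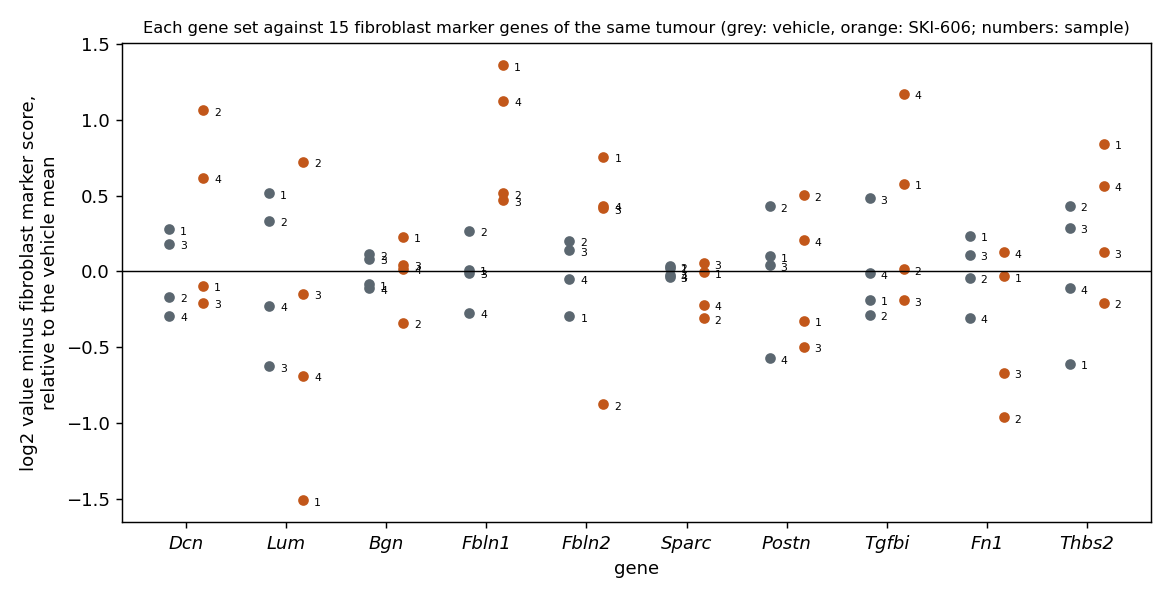
Log2 value of each gene minus the mean log2 value of 15 fibroblast markers in the same sample, set to 0 at the vehicle mean; points are samples, labelled by number, with vehicle in grey and SKI-606 in orange. For Fbln1 all 4 SKI-606 points, from 0.47 to 1.36, lie above the vehicle points, while the Sparc and Bgn points of SKI-606 sample 2, at -0.31 and -0.34, lie below all vehicle points.

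Markers of other cells moved in the same samples, and their counts stand beside 47.2% of all genes above 0. Of the endothelial markers 12 of 12 lay above 0 (median 0.74, summed signal 978 to 2160 under vehicle and 2102 to 3810 under SKI-606), of the macrophage markers 11 of 11 (median 0.71, 6132 to 12570 and 9824 to 23490), and of the pericyte and smooth muscle markers 10 of 10 (median 0.60, 1663 to 2580 and 1959 to 7344). Markers of luminal epithelium, which define the labelled mammary tissue, were present in every sample and split 5 and 5 around 0, with sums of 27600 to 31410 and 26050 to 33100. The cell cycle markers lay below 0 in 11 of 11, with a median of -0.76, and had their lowest sums, 2047 and 1914, in SKI-606 samples 1 and 4. Of the basal markers 5 of 7 lay above 0, of the squamous markers 7 of 11 (sums of 711 to 13100 and 641 to 21450), and of the melanocyte and nerve markers 1 of 4. Skeletal muscle markers also lay above 0 in 10 of 10, with a median of 0.22 and 0 at an unadjusted p under 0.05 in limma. Their sums ran from 142 to 21650 under vehicle and from 133 to 15570 under SKI-606. Of the adipocyte markers 6 of 7 lay above 0, with a median of 0.16. The part of these cell types in the members' difference was not tested.

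Other genes of the matrix pathway were read in 7 lists, each gene by its brightest probe. In each of them 0 genes passed the adjusted threshold, and unadjusted calls are read beside the 6.07% of all genes that were higher and the 4.31% that were lower at that p. Of 12 other small leucine-rich proteoglycans 8 were positive and 4 negative in log2 fold change. Their median was 0.30, and 3 had an unadjusted p under 0.05, all higher. Prelp, which encodes a proteoglycan that anchors basement membranes to connective tissue, stood at 2.12 ± 0.54, further from 0 than any of the 10 members. Its signal was 272, 111, 156 and 163 in the vehicle samples and 1300, 420, 327 and 2039 in the SKI-606 samples, without overlap. Fmod, which encodes the collagen-binding fibromodulin, stood at 1.44 ± 0.57, with SKI-606 sample 2, at 50.9, inside the vehicle range.

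Aggregating proteoglycans and link proteins were mostly dim, 7 of 8 with a mean under 32, and their median was -0.04, with 3 positive and 5 negative values, and 1 gene, Hapln4, was lower at an unadjusted p under 0.05. Vcan, which encodes versican, the main one of loose connective tissue, stood at 0.42 ± 0.31. The 8 probes of Vcan ranged from -0.33 to 0.59. The link protein genes Hapln1 and Hapln4 stood at -0.29 ± 0.17 and -0.38 ± 0.17, from mean signals under 13 in both groups. Of 14 other fibulins and elastic fibre proteins 13 lay above 0 with a median of 0.61, and 2 had an unadjusted p under 0.05. These were Fbln7, a further fibulin gene, at 0.99 ± 0.38, and Ltbp4, which encodes a latent TGF-beta binding protein, at 1.04 ± 0.37. Mfap5, a microfibril gene, stood at 0.43 ± 0.34. Without SKI-606 samples 1 and 4 and vehicle sample 3 the medians of the 7 lists ran from -0.087 to 0.17, and that of this list was -0.053.

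Of 25 other matricellular genes 22 had positive values, the median was 0.40, and 6 had an unadjusted p under 0.05, 5 higher and 1 lower. Ccn4, a member of the CCN family, went from a mean of 26.6 to 88.0 and stood at 1.20 ± 0.30 without overlap of the groups. Ccn2, the connective tissue growth factor gene, stood at 0.75 ± 0.49, with means of 1131 ± 227 under vehicle and 2365 ± 1668 (SD) under SKI-606. Matn1, a cartilage matrilin gene, was the lower one at -0.67 ± 0.16, from signals near the floor in both groups (means 13.9 and 2.72).

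Of 16 enzymes and chaperones of collagen maturation all 16 lay above 0, with a median of 0.52, and 5 had an unadjusted p under 0.05. Serpinh1, which encodes the collagen chaperone HSP47, had signals of 1424, 1843, 1136 and 1578 under vehicle and 3488, 2218, 2488 and 3278 under SKI-606, a log2 fold change of 0.93 ± 0.20 without overlap. Pcolce, which encodes an enhancer of procollagen cleavage, stood at 0.96 ± 0.28, also without overlap. Loxl1 of this list is a fibroblast marker as well. Of 22 receptors of these proteins 19 lay above 0 with a median of 0.45, and 6 higher and 1 lower had an unadjusted p under 0.05. Itgb5 and Itgb1, integrin beta chains of vitronectin and fibronectin receptors, stood at 0.76 ± 0.24 and 0.67 ± 0.22, though the 6 probes of Itgb1 ranged from 0.04 to 0.67, and Ddr1, an epithelial collagen receptor, at 0.03 ± 0.20.

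Of 19 enzymes that build the chondroitin and dermatan sulfate chains of decorin and biglycan 15 lay above 0, with a median of 0.19, and 5 had an unadjusted p under 0.05, all higher. Chst11, a sulfotransferase gene, stood at 1.12 ± 0.39 and 0.40 on its other probe, Xylt2, which starts the chains, at 0.56 ± 0.20, and Chsy1, a chain polymerase gene, at -0.05 ± 0.21.

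**Figure D5:**
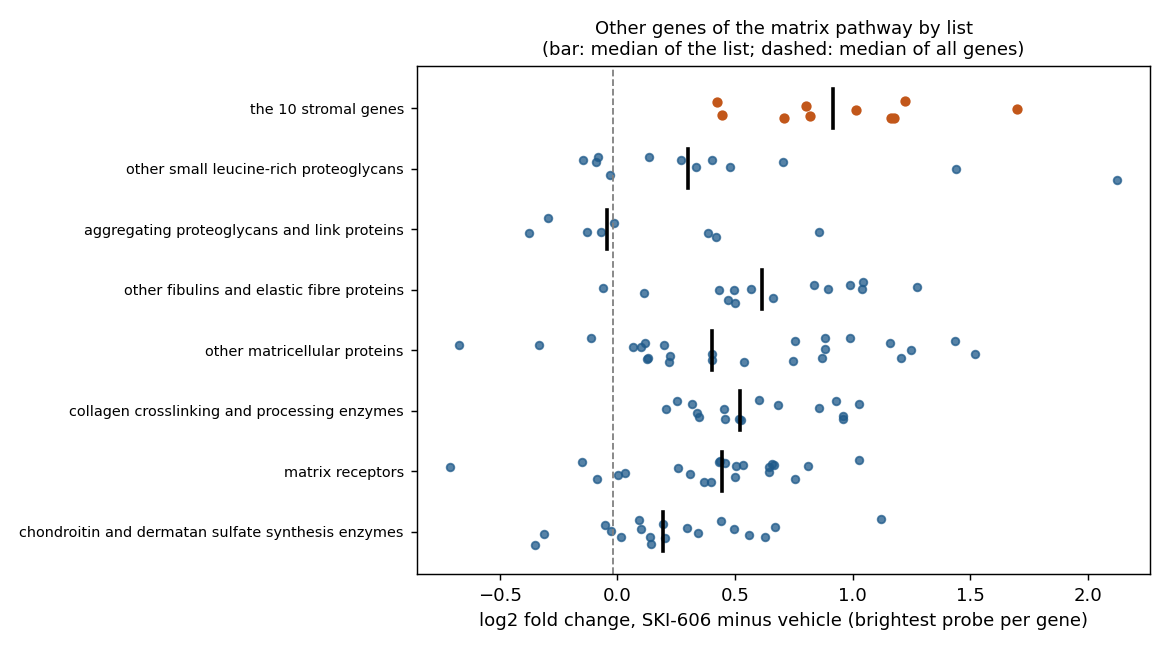
Log2 fold change (SKI-606 minus vehicle, horizontal axis) of the brightest probe of every measured gene of 7 matrix lists (blue) and of the 10 stromal genes (orange); black bars are list medians and the dashed line is the median of all genes, -0.02. The median of the 10 genes, 0.91, lies to the right of the list medians, which run from -0.04 to 0.61, whereas on the deposited ratios the medians were 1.14 for the 10 genes and 1.11 for the other fibulins and elastic fibre proteins. The lists hold dim genes and are not matched to the 10 in brightness. With only probes of mean signal of at least 50, list medians ran from 0.19 to 0.76 (other matricellular proteins), beside 0.91.

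Genes outside the list with the pattern most like a member were sought among 9331 genes with a mean log2 value of at least 6, by Pearson's r over the 8 samples. The closest to Bgn was Gask1b, with r of 0.997 (Spearman's rho 1), and the closest to Fbln1 was Plec, the plectin gene, with r of 0.997 (rho 0.976). Tgfbi was closest to Pdgfrb, the receptor gene of pericytes and fibroblasts, with r of 0.991 (rho 0.929), and Dcn to Rnase4 with r of 0.984 (rho 0.976). Of the other 6 members, Fbln2 was closest to Inf2 (r 0.994), Thbs2 to Crtap (0.990), Fn1 to Emcn (0.990), Sparc to Arhgef7 (0.988), Lum to Gskip (0.985) and Postn to Spop (0.959). Gskip itself had a log2 fold change of 0.08 ± 0.14. Without the 2 samples farthest from the member's median, SKI-606 samples 1 and 4 for Bgn, Fbln1 and Tgfbi and SKI-606 samples 2 and 4 for Dcn, r was 0.976, 0.988, 0.964 and 0.938. Each is the highest of 9331 values, for which no p is given.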

How the data were processed

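Expression was measured on 1 Affymetrix mouse array per sample. The authors deposited linear ratios, with no software or normalization given in the sources used here. From the values, each signal had been divided by its array's median and then by its probe's median over the arrays (26196 of 45101 probes) or by a constant, with a lowest ratio of 0.01. The undivided signals were rebuilt by searching, per probe, for the lowest set of whole numbers in the deposited proportions. Dividing them again gave back 100.0% of probes within 0.0001, but the search accepts only numbers near those proportions. Of 5000 probes simulated from the rebuilt signals with the same divisions, 99.8% were recovered, with values at the lowest ratio counted as recovered. Neither figure is an independent test that the deposited values were made by these divisions. Array medians were 15 to 18, and 23 in vehicle sample 3. Between 0.26% (vehicle sample 3) and 3.62% (SKI-606 sample 4) of signals were 0, and at most 8.3% of probes agreed between any 2 arrays.

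After leaving out 64 control probes, signals were quantile normalized, 16 was added and log2 taken. limma 3.58.1 in R 4.3.3 was fitted to all 45037 probes, with Benjamini-Hochberg adjustment at 0.05, and the fit was tested on simulated data. Single members also got a two-sided exact permutation test over 70 assignments. Symbols came from the platform annotation (34945 probes with 1 symbol, 932 with several, 9160 unnamed here). Members and lists were chosen with earlier results of these data known. Named were all members, the 2 genes of smallest p and the brightest gene of each list, the closest gene to a member, and the neighbours of Dcn. The samples share replicate numbers, but same-numbered samples had correlations of deviations from -0.15 to 0.11, and pairing was not used. Alternatives were other scalings, pseudocounts, probe choices, weights, a replicate block and samples left out. Detection calls, scan dates and batches were not analysed here. With 4 arrays a group, precision is limited by their number.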

Additional observations from a re-analysis of the deposited data

Results flagged for a closer look

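In 2 of 38 groups of 4 samples looked at (19 probes in each treatment group), 1 sample lay far from the other 3, where chance gives about 1 in 20. On 1 probe of Bgn vehicle sample 3 had a signal of 1531, against 1760, 1744 and 1760 in the other vehicle samples, and this gap made up 0.935 of the group's range on the log2 scale. On the Fn1 probe vehicle sample 1, at 1997, lay above the other vehicle samples, at 1318, 1284 and 1384, with a gap of 0.8315 of the range. Both exceed the 95% critical value of Dixon's ratio for 4 samples. The log2 fold change of Fn1 without vehicle sample 1 was 0.59, against 0.45 with it, and over all samples left out in turn it ran from 0.11 (without SKI-606 sample 4) to 0.73 (without SKI-606 sample 3).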

How the results depend on the processing

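Under all settings tried, 0 members and 0 probes passed the adjusted threshold. Where all 45037 probes were tested, 1770 to 4922 had an unadjusted p under 0.05 in limma. With only probes of mean signal of at least 50 it was 1693 of 14947. The number of members at an unadjusted p under 0.05 was 6 to 8 under the other scalings, pseudocounts, filter, weights, trend and probe means, and 8 with the replicate block, whose median was also 0.91. Leaving out each sample in turn gave 5 to 8 members (5 without SKI-606 sample 1 or 4) and a median from 0.71 to 1.14. Without SKI-606 samples 1 and 4 and vehicle sample 3 there was 1 member and a median of 0.39, and without SKI-606 samples 1 and 4 alone, a setting chosen after seeing the data, also 1 and 0.39. The log2 fold change of Fn1 was then -0.42 and -0.36, and the cause was not tested beyond the fewer samples. The setting without 3 samples was planned, but the labels set none of these samples apart, so neither choice was blind to expression values. Without the 3 samples the list medians were -0.053 for elastic fibre proteins, 0.043 for matricellular genes, 0.057 for small leucine-rich proteoglycans, 0.048 for chain synthesis, 0.16 for collagen enzymes and 0.17 for receptors. On the deposited ratios they were 1.11, 0.93, 0.79, 0.48, 0.97 and 0.71 in the same order, beside 1.14 for the members. Among probes of mean signal of at least 50 they were 0.66, 0.76, 0.59, 0.19, 0.60 and 0.46, beside 0.91 for the members. The aggregating proteoglycans turned to 0.044 with a pseudocount of 1, 0.013 on the deposited ratios, and 0.42 with only probes of mean signal of at least 50, where Vcan alone is left, and ran from -0.12 to 0.11 with each sample left out. The median of all probes was 0.096 on the deposited ratios, 0.04 with array median scaling, and from -0.052 to -0.0041 under the other settings, beside -0.02 as reported. Dim probes near the floor limit what can be read of Kera, Epyc, Matn1 and the link proteins.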

Other observations

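A few matrix genes outside the naming rule were singled out after their values were seen. Ccn5, which encodes a CCN protein, stood at 1.43 ± 0.40, with means of 171 under vehicle and 469 under SKI-606, and Smoc1, which encodes a SPARC-related calcium-binding protein, at 1.25 ± 0.43, with means of 562 and 1359. Itga5, the alpha chain of the main fibronectin receptor, stood at 1.03 ± 0.40, beside 0.45 ± 0.41 for Fn1 itself, though its 4 probes ranged from 0.0085 to 1.03, and Itga4, the alpha chain of another, at -0.71 ± 0.27 from means of 21.2 and 5.84, near the floor, with its 5 probes from -0.71 to 0.29. Thbs1, the closest relative of Thbs2, stood at 0.12 ± 0.34, where Thbs2 was at 1.16 ± 0.38, and Eln, the elastin gene, at -0.06 ± 0.49 on its brighter probe and 0.74 on the other. The difference between Thbs1 and Thbs2 was not tested. All adjusted p-values of these genes in limma were at least 0.519.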
